A study of Mus musculus with 14 samples.

Results

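CC chemokines are small secreted proteins, named for a pair of adjacent cysteines, that bind receptors on leukocytes and draw these cells into tissue. Ccl2, Ccl7, Ccl12 and Ccl8 are the monocyte chemoattractant proteins of the mouse, and the first 3 of them act on Ccr2, the receptor that lets monocytes reach inflamed sites and tumours. Ccl3, Ccl4, Ccl5 and Ccl9 are relatives of the macrophage inflammatory proteins, which draw monocytes, macrophages and T cells, and Ccl22 acts on Ccr4 of regulatory and helper T cells. These 9 genes were taken by name, as the probe sets annotated with 1 of these symbols alone. All 9 had a single probe set on each of the 2 array designs, out of 22180 genes on the first design and 19938 on the second.

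The series profiled total RNA of 14 tumours grown in C57BL/6 mice from B16-F10 cells, a pigmented melanoma line. The tested tumours came from sublines Res 499 (7 tumours) and Res 177 (2 tumours), called resistant in the labels, and they were set against 5 tumours of the control subline, called sensitive. Both Res sublines were isolated from unirradiated tumours that resisted or relapsed in mice whose opposite flank tumour had received 20 Gy on day 8, with the CTLA4-blocking antibody 9H10 given on days 5, 8 and 11. The labels do not say whether a subline was 1 clone, whether the profiled tumours were themselves treated, or whether each tumour grew in its own mouse. The p-values therefore reflect only the scatter among these samples, part of which may be technical. The first design held 7 Res 499, 1 Res 177 and 4 control tumours, and the second held 1 Res 177 and 1 control tumour. Levels are log2 expression values, differences are log2 fold changes with the standard error (SE) of limma, and adjusted p-values are Benjamini-Hochberg values over 16635 genes. In whole tumours, fewer cells of a type and less RNA per cell cannot be told apart.

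Melanoma markers were high in every tumour of the first design: Pmel lay between 13.18 and 13.48, and Dct between 13.49 and 13.80. The 18 macrophage and monocyte markers, taken as a mean relative to the control tumours, ran from -0.34 to 1.79 in Res 499 tumours and from -0.21 to 0.42 in control tumours, and the mean was 1.03 in the Res 177 tumour. All 18 had a higher mean in Res 499 than in control tumours, and none lay among the dimmest 25% of genes in any tumour. Res 499 replicates 1, 2, 3 and 5 had marker means between 1.24 and 1.79, and replicates 4, 6 and 7 had 0.22, 0.01 and -0.34. The 6 fibroblast markers ran from -0.84 to 1.44 in Res 499 and from -0.46 to 0.51 in control tumours, and the keratinocyte list stood at 2.17 in the Res 177 tumour, against at most 0.14 in Res 499 tumours and 0.11 in control tumours.

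The genes lie in 3 places in the mouse genome (GRCm38.p6, RefSeq). Ccl2, Ccl7, Ccl12 and Ccl8 follow each other on chromosome 11 between 82035577 and 82116799, a span of 81.2 kb. Ccl5, Ccl9, Ccl3 and Ccl4 lie on the same chromosome between 83525778 and 83664683, and the annotated spans of Ccl3 (83647843 to 83649378) and Ccl4 (83648624 to 83664683) overlap. Ccl22 lies on chromosome 8 between 94745684 and 94751388. Promoter windows of 300 bases, from 250 bases before to 50 after the gene start, were found in the RefSeq table for 5 of the 9 genes. Below are the 4 of them that lie on chromosome 11, shown because Ccl3 had the lowest p-value and Ccl9 the largest difference in Res 499, while Ccl8 and Ccl12 are neighbours whose levels are described together. They are written 5′ to 3′ on the strand of the gene, with capitals for matches, on either strand, to the NF-kappaB consensus, the AP-1 site TGANTCA, the interferon-stimulated response element and the TATA box TATAAA.
Ccl8 (chr11:82114935-82115234, plus strand): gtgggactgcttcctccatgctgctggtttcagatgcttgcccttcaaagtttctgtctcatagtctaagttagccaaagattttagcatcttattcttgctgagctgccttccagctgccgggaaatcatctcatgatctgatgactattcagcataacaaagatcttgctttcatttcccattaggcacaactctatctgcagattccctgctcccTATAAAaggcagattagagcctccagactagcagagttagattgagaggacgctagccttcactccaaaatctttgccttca
Ccl12 (chr11:82101595-82101894, plus strand): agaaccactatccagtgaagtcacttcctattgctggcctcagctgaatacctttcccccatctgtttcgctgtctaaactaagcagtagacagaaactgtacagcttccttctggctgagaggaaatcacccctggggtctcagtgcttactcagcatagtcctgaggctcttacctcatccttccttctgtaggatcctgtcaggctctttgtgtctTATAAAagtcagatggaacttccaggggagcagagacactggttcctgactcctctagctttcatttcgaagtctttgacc
Ccl9 (chr11:83578587-83578886, minus strand): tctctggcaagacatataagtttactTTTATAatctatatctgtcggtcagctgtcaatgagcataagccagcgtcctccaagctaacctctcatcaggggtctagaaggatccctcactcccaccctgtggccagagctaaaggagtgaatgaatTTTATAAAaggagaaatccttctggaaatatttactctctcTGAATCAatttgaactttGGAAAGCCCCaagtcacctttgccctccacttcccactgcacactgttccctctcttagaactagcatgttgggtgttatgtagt
Ccl3 (chr11:83649329-83649628, minus strand): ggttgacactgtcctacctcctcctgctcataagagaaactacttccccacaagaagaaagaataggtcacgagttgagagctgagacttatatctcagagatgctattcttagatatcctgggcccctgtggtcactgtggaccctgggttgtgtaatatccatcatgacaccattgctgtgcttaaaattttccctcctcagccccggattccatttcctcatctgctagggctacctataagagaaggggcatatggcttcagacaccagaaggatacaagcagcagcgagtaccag

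Ccl8 and Ccl12 each carried 1 TATAAA, whose first base stood at -32 and -31 from the gene start. The Ccl9 window held 1 NF-kappaB match at -35 on the opposite strand, 1 AP-1 match at -53 and 3 TATAAA matches. Of the TATAAA matches, those at -224 and -94 were on the opposite strand, printed as TTTATA. The one at -92 was on the strand of the gene and overlaps that at -94. None of the motifs searched for stood in the Ccl3 window. Of 32851 promoter windows of the same length, 5.80% held the NF-kappaB consensus, 7.81% TGANTCA, 3.44% the interferon-stimulated response element and 13.6% TATAAA. A match is a description of the sequence only.

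The comparison of Res 499 with control asks what sets tumours of this resistant subline apart from those of the sensitive subline. The Res 499 cells came from the unirradiated side of mice given radiation and CTLA4 blockade. Of the 9 genes, 8 passed the filter on dim genes, and all 8 had higher means in Res 499 tumours. In 4 of them the difference was at least 1, or 2-fold: Ccl9 at 1.42, Ccl7 at 1.26, Ccl3 at 1.22 and Ccl8 at 1.05. Positive differences of that size were seen in 0.499% of all genes tested, and positive ones of any size in 51.7%. The median difference was 1.03 over the 8 genes and 0.01 over all genes tested. No chemokine of the 8 passed the adjusted threshold of 0.05, which 0.355% of all genes did, and 5 of the 8 (Ccl2, Ccl3, Ccl7, Ccl9 and Ccl22) were higher at an unadjusted p under 0.05, as were 6.68% of all genes. These 8 had to pass a filter on their mean level over all tumours, so their count does not stand for all 9.

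**Figure D1:**
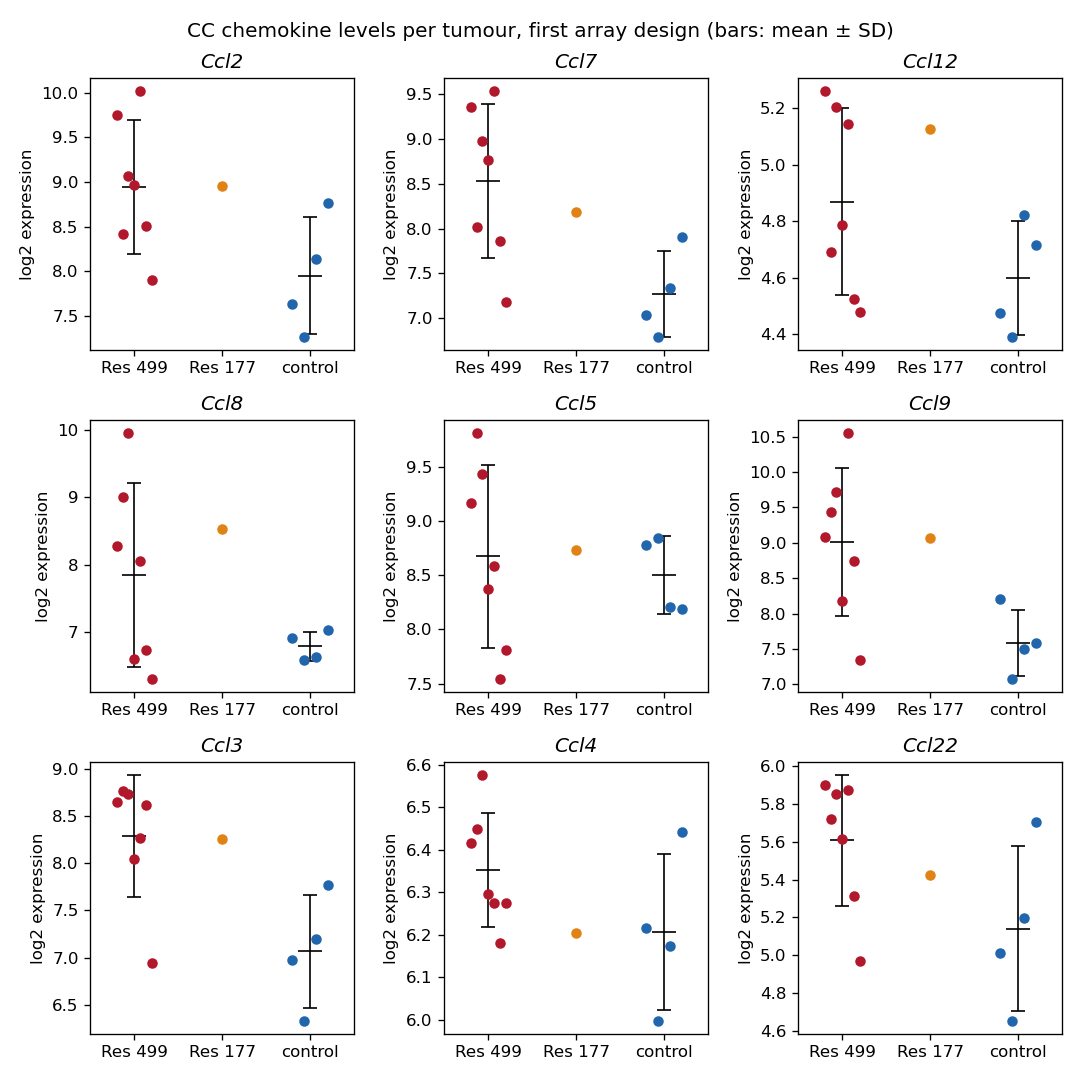
Log2 expression of the 9 CC chemokines in each tumour of the first array design, 1 panel per gene with its own axis, for 7 Res 499, 1 Res 177 and 4 control tumours (points), with the mean and SD of Res 499 and control as bars. Points of Ccl3 sit above the control range in 6 of 7 Res 499 tumours, and those of Ccl5 lie on both sides of it.

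Among the Ccr2 ligands, Ccl2, the main attractant of monocytes, ran from 7.90 to 10.02 in Res 499 tumours with a median of 8.97. In control tumours it was 7.63, 7.26, 8.14 and 8.77 in replicates 2 to 5, and in the Res 177 tumour 8.95. Its groups overlapped: 4 of 7 Res 499 tumours lay above the highest control, none lay below the lowest, and replicates 5 and 1 were the highest. The mean was 8.95 ± 0.75 (SD, n = 7) in Res 499 and 7.95 ± 0.65 (SD, n = 4) in control, a difference of 0.999 (SE 0.39, limma adjusted p = 0.292).

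Ccl7, a close relative that also acts through Ccr2, was 9.36, 8.02, 8.98, 8.77, 9.54, 7.86 and 7.19 in Res 499 replicates 1 to 7. It was 7.04, 6.79, 7.34 and 7.90 in control replicates 2 to 5, and 8.19 in the Res 177 tumour. In Res 499, 5 of 7 tumours stood above every control, and replicates 6 and 7 fell within the control range. The difference was 1.26 (SE 0.41, limma adjusted p = 0.207, n = 7 and 4), with a 95% interval from 0.38 to 2.15. Ccl2 and Ccl7 were each other's most similar gene among the 8 chemokines over the 12 arrays (Pearson r = 0.968, as a measure of likeness that includes the group difference and the uneven leukocyte content).

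Ccl8, which in the mouse also binds Ccr8, varied more than any other of the 9 among Res 499 tumours, at 8.28, 9.00, 9.95, 6.61, 8.06, 6.74 and 6.31 in replicates 1 to 7. Control tumours were close together, at 6.92, 6.59, 6.64 and 7.04 in replicates 2 to 5, and the Res 177 tumour was at 8.53. In Res 499 the 4 tumours above every control were replicates 1, 2, 3 and 5, the ones with the high macrophage marker means, while replicate 7 lay below every control. Other lists parted the same tumours. Fibroblast means were 1.08 to 1.44 in replicates 1, 2, 3 and 5 and -0.84 to -0.34 in replicates 4, 6 and 7. T cell means were 0.29 to 0.79 and -0.11 to 0.10 in the same order. The part of any list in Ccl8 was not tested. The spread in Res 499 (SD 1.36, n = 7) exceeded the difference of 1.05 (SE 0.60, limma adjusted p = 0.496), and the spread in control was 0.21 (SD, n = 4). Ccl12, a Ccr2 ligand found in the mouse, lay below the filter, at 4.48 to 5.26 in Res 499 with a median of 4.79 and at 4.47, 4.39, 4.82 and 4.71 in control replicates 2 to 5. Without a filter its difference was 0.27 (SE 0.16, limma adjusted p = 0.603 over 22180 genes), and 3 of 7 Res 499 tumours, replicates 1, 3 and 5, lay above every control.

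Among the macrophage inflammatory protein relatives, Ccl3, also known as MIP-1 alpha and made by activated macrophages, had the most Res 499 tumours above the control range. It was 8.65, 8.77, 8.73, 8.05, 8.26, 8.62 and 6.95 in Res 499 replicates 1 to 7. In control replicates 2 to 5 it was 6.98, 6.33, 7.19 and 7.77, and in the Res 177 tumour 8.26. In Res 499, 6 of 7 tumours lay above every control, and replicate 7 was within the control range. At least 6 of 7 Res 499 tumours lay above every control in 4.44% of all genes, and in 1 of the 8 chemokines. All 7 lay above every control in 1.23% of all genes, and in 0 of the 8. The difference was 1.22 (SE 0.34, limma adjusted p = 0.145), and without replicate 7 it was 1.45 (SE 0.24) and passed the threshold (limma adjusted p = 0.0418). In that fit 37 of 16635 genes passed. Replicate 7 had the lowest Ccl3 of the Res 499 tumours, and Ccl3 did not pass with any other single tumour left out. Replicates 4 and 6 had high Ccl3 beside macrophage marker means of 0.22 and 0.01, which were inside the control range of -0.21 to 0.42. The part of macrophage content in Ccl3 was not tested.

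Ccl9, a Ccr1 ligand of rodents that macrophages and other myeloid cells make, was 9.08, 9.43, 9.72, 8.18, 10.55, 8.74 and 7.35 in Res 499 replicates 1 to 7. Control replicates 2 to 5 had 8.20, 7.07, 7.498 and 7.58, and the Res 177 tumour had 9.06. Replicate 5 was the highest of the Res 499 tumours, 5 of 7 lay above every control, and replicates 4 and 7 overlapped with control. The difference of 1.42, a fold of 2.68, was the largest of the 9 (SE 0.48, limma adjusted p = 0.228).

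Ccl5 (RANTES), made by T and NK cells as well as by stimulated tumour cells, did not differ beyond its spread. It was 9.16, 9.81, 9.43, 8.37, 8.58, 7.54 and 7.81 in Res 499 replicates 1 to 7, and 8.78, 8.84, 8.20 and 8.18 in control replicates 2 to 5. Res 499 tumours thus lay on both sides of control: replicates 1, 2 and 3 above the highest and replicates 6 and 7 below the lowest. The difference was 0.17 (SE 0.38, limma adjusted p = 0.894) with a 95% interval from -0.66 to 1.01. T cell list means (9 genes) relative to control were 0.41, 0.79, 0.69, 0.10, 0.29, -0.10 and -0.11 in Res 499 replicates 1 to 7. In control tumours they ran from -0.09 to 0.18. Replicate 5 (0.29) and the Res 177 tumour (0.44) lay above that range, but their Ccl5, at 8.58 and 8.73, was inside the control range. Means of the NK and cytotoxic list (8 genes) ran from -0.08 to 0.58 in Res 499 and from -0.12 to 0.25 in control tumours. The part of either list in the spread of Ccl5 was not tested.

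Ccl4, known as MIP-1 beta, was nearly level, at 6.18 to 6.58 in Res 499 with a median of 6.29 and at 6.22, 6.00, 6.17 and 6.44 in control replicates 2 to 5. Its difference was 0.15 (SE 0.09, limma adjusted p = 0.561), with a 95% interval from -0.06 to 0.35, although its neighbour Ccl3 differed by 1.22. Ccl22, made by dendritic cells and macrophages, ran from 4.97 to 5.90 in Res 499 with a median of 5.72, and was 5.01, 4.65, 5.19 and 5.71 in control replicates 2 to 5. It stood above every control in 4 of 7 Res 499 tumours, with a difference of 0.47 (SE 0.21, limma adjusted p = 0.368). Dendritic cell markers (7 genes) had list means from 0.03 to 0.46 in Res 499 and from -0.14 to 0.15 in control tumours, and their part in the difference was not tested.

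**Figure D2:**
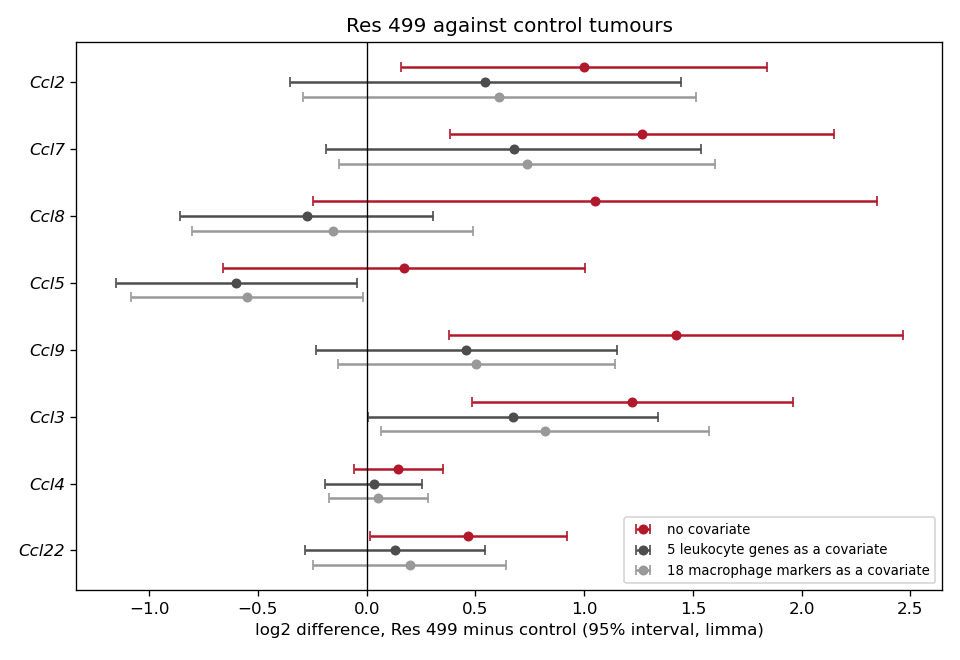
Log2 differences of Res 499 minus control tumours with 95% intervals from limma for the 8 chemokines that passed the filter (7 and 4 tumours), without a covariate and with 5 leukocyte genes or 18 macrophage markers as a covariate. With either covariate the estimates of Ccl5 and Ccl8 lie below 0, and that of Ccl3 stays above it.

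The estimates were lower with leukocyte or macrophage RNA in the fit. With the mean of 5 leukocyte genes (Ptprc, Cd53, Laptm5, Itgb2 and Cd52) as a covariate, the median difference of the 8 chemokines was 0.30, against 1.03 without it, and with the 18 macrophage markers it was 0.35. The chemokines did not move alike. Ccl3 was at 0.67 (SE 0.31, 95% interval 0.01 to 1.34) with the leukocyte covariate and Ccl7 at 0.68 (SE 0.40), while Ccl8 turned to -0.28 (SE 0.27) and Ccl5 to -0.60 (SE 0.25, 95% interval -1.15 to -0.05). With the macrophage covariate the differences were 0.82 for Ccl3, 0.74 for Ccl7, -0.16 for Ccl8 and -0.55 for Ccl5. None of the 8 passed the threshold with either covariate (lowest limma adjusted p = 0.388 and 0.401). Both covariates were means of RNA levels, not cell counts. The macrophage mean lay above every control in 4 of 7 Res 499 tumours, so it can take up part of the group difference itself. Whether leukocyte content caused the differences was not tested.

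**Figure D3:**
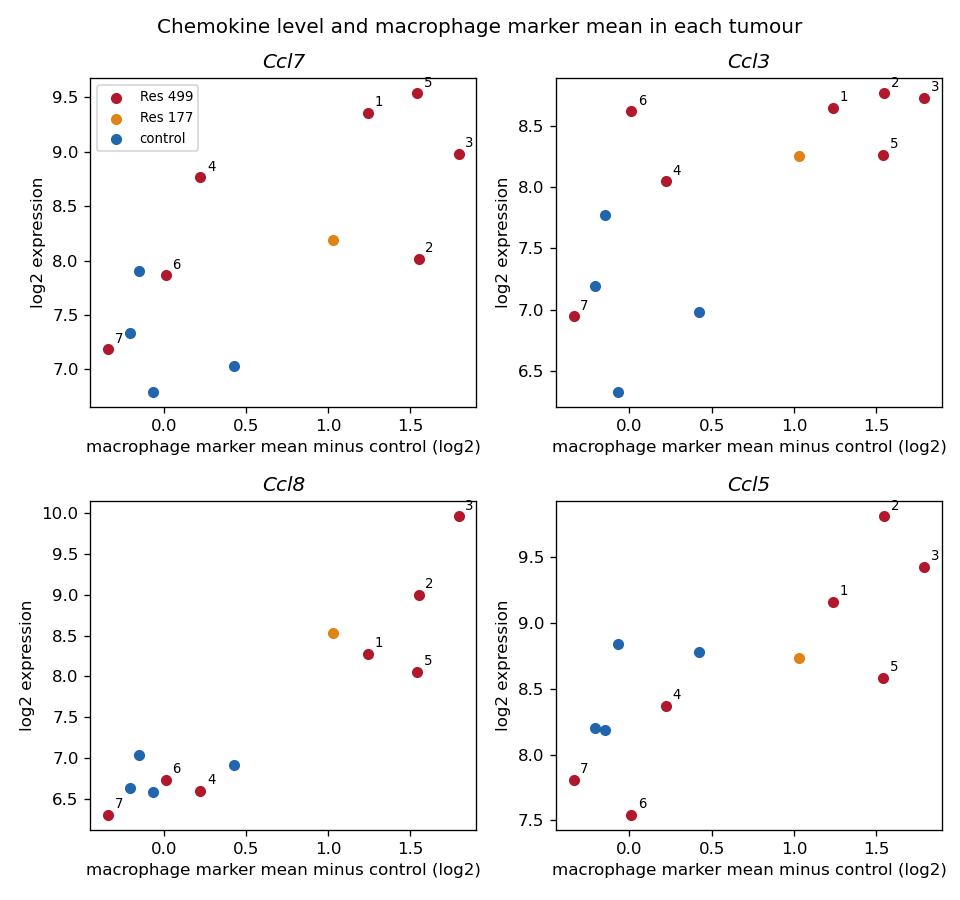
Log2 expression of Ccl7, Ccl3, Ccl8 and Ccl5 (vertical axes) against the mean of 18 macrophage and monocyte markers relative to control (horizontal axes) in the 12 tumours of the first design, with Res 499 replicates numbered. Res 499 replicates 4 and 6 sit among the control tumours for Ccl8 and replicate 7 just below them, while replicate 4 lies above them for Ccl7 and replicates 4 and 6 for Ccl3.

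Within Res 499 the chemokines ordered the tumours differently. Replicate 4, whose macrophage marker mean was 0.22, exceeded every control in Ccl2, Ccl7 and Ccl3, at 1.02, 1.501 and 0.98 over the control mean, but had Ccl8 at -0.19 and Ccl5 at -0.13. Replicate 6, at a marker mean of 0.01, was above every control only in Ccl3 (1.55 over the control mean) and Ccl9 (1.16), and had Ccl5 at -0.96. Replicate 7 exceeded the highest control in 0 of the 8 chemokines, and replicate 3 in all 8. The macrophage marker means of Res 499 fell into clusters of 3 and 4 tumours, parted by a gap of 1.02 out of a range of 2.13, so no correlation with them was computed.

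**Figure D4:**
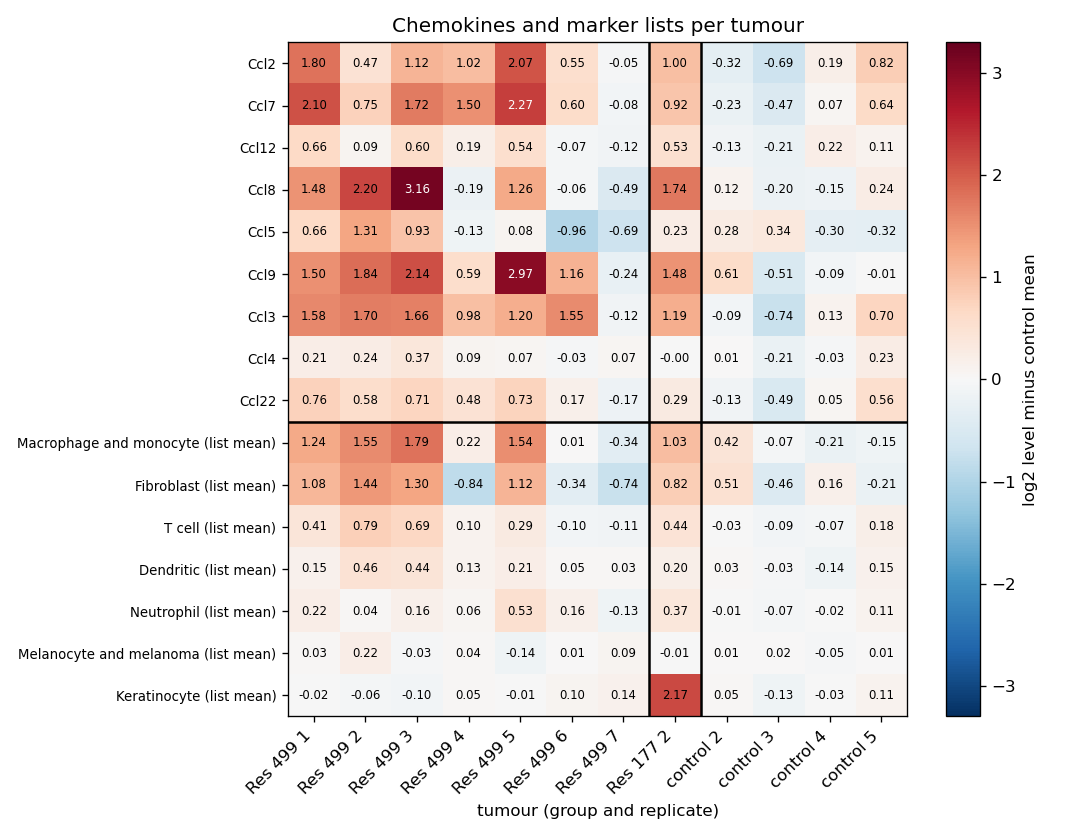
Log2 level minus the control mean for the 9 chemokines (upper rows) and for the means of 7 marker lists (lower rows) in each tumour of the first design, with Res 499 left, then Res 177, then control. The row of Ccl3 is at 0.98 or above in Res 499 replicates 1 to 6, whereas Ccl8 is at 1.26 or above in Res 499 replicates 1, 2, 3 and 5 and at -0.06 or below in replicates 4, 6 and 7.

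Genes whose levels followed each chemokine most closely over the 12 arrays differed between them, by Pearson r over the same arrays. The 9 chemokines themselves, predicted gene models, antigen receptor segments and small RNAs were left out of this ranking. For Ccl7 they were Oasl1 (r = 0.981) and Oas1c (0.972), of the interferon-induced oligoadenylate synthetase family, and Adap1 (0.934). For Ccl2 they were Oas1c (0.941), the metalloprotease gene Adam8 (0.930) and the coagulation factor gene F10 (0.916). Ccl9 was closest to the CC chemokine Ccl6 (0.980), to Itgam (0.978), the CD11b integrin of myeloid cells, and to Srgn (0.977), the proteoglycan of secretory granules. Ccl8 was closest to Slc13a3 (0.984), Arhgef3 (0.979) and Plbd1 (0.972). Ccl5 was closest to the lymphocyte GTPase gene Gimap6 (0.964), to Entpd1 (0.964), which encodes the ectonucleotidase CD39, and to the interferon receptor gene Ifnar2 (0.927). Ccl3 was closest to Dennd1c (0.930), Rassf5 (0.928) and the atypical chemokine receptor gene Ccrl2 (0.925). Ccl4 was closest to Treml4 (0.930), Trafd1 (0.909) and Pfkfb3 (0.902), and Ccl22 to Cd7 (0.924), B4galnt1 (0.921) and F10 (0.920). Each gene was picked for its high r among all genes ranked, over only 12 arrays, and such picking favours high values by itself. The r values also share the difference between the groups and the uneven leukocyte content. Among the chemokines, Ccl5 was the least similar to each of the others except Ccl8, down to r = 0.176 with Ccl2.

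Receptors of these chemokines were measured in the same fit. Of the 8 analysed, 5 passed the filter. All 5 had positive differences with a median of 0.59, beside 51.7% positive among all genes. The threshold in limma was passed by 0 of the 5 and by 0.355% of all genes. An unadjusted p under 0.05 was reached by 2 of the 5, both higher, and by 13.0% of all genes in either direction. Ccr2 differed by 1.09 (SE 0.49, adjusted p = 0.370), with 4 of 7 Res 499 tumours above every control, and Ccr1 by 0.60 (SE 0.28, adjusted p = 0.387), with 5 of 7. The control mean of Ccr1 (4.82) lay below the filter level of 4.94, and its Res 499 mean (5.42) above it. Ccr1 thus passed only through the tumours where it was high. The positive count and median of the 5 receptors include this selection. Ccrl2, an atypical receptor that binds chemerin, differed by 0.59 (SE 0.19, adjusted p = 0.215), with 6 of 7 tumours above control. Ccr8 was at 0.13 and the scavenger receptor Ackr2 at 0.036, while Ccr3, Ccr4 and Ackr1 lay below the filter. Ccr2 is itself one of the 18 macrophage markers, so it is not independent of them.

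Of 8 other CC chemokines tested, 5 had positive differences, beside 51.7% of all genes, and the median was 0.08. The threshold in limma was passed by 0 of the 8 and by 0.355% of all genes. At an unadjusted p under 0.05, 1 was higher (Ccl6) and 1 lower (Ccl28), beside 13.0% of all genes in either direction. Ccl6, a myeloid chemokine of rodents, differed by 1.58 (SE 0.62, adjusted p = 0.299), and the mucosal chemokine Ccl28 by -0.24 (SE 0.08, adjusted p = 0.243). Ccl11, an attractant of eosinophils, was at 0.44 and Ccl17, the other Ccr4 ligand, at 0.24. Ccl20, the Ccr6 ligand, was at 0.11, Ccl25 at 0.054, Ccl24 at -0.0099 and Ccl1 at -0.015. Of the CXCR3 ligands in the same fit Cxcl10 rose, with a difference of group means of 1.33 (SE 0.25, limma adjusted p = 0.0482). Cxcl11 was at 0.37 (SE 0.098, limma adjusted p = 0.126) and Cxcl9 at 0.73. All 7 Res 499 tumours lay above every control in both Cxcl10 and Cxcl11, as in 1.23% of all genes, and 3 of 7 in Cxcl9. At an unadjusted p under 0.05, 2 of the 3 were higher (Cxcl10 and Cxcl11), beside 13.0% of all genes in either direction. The Cxcl10 call was marginal: it was lost with all resistant tumours pooled (1.23, limma adjusted p = 0.0553), with no filter, with either covariate and in 8 of 12 fits that left out 1 tumour (control replicate 2, 3 or 4, or Res 499 replicate 1, 3, 4, 5 or 6). Over all its alternatives the Res 499 difference ran from 1.11 to 1.54 and the limma adjusted p from 0.0136 to 0.169. Tested genes of the NF-kappaB pathway and inflammatory cytokines, which govern many chemokine genes, numbered 11. Of these 11, 6 had positive differences, beside 51.7% of all genes. Their median was 0.06 and 0 passed in limma, beside 0.355% of all genes. At an unadjusted p under 0.05, 2 were higher (Tnf and Nfkbia) and 1 lower (Nfkb2), beside 13.0% of all genes in either direction. Tnf differed by 0.42 (SE 0.14, adjusted p = 0.214), with 6 of 7 Res 499 tumours above control, Il1b by 0.50 and Csf1, the macrophage growth factor, by 0.32, while Nfkb2 and Tnfaip3, a brake on the pathway, were both at -0.22. Ptgs2 was at 0.38, the inhibitor gene Nfkbia at 0.22 and Ifng at 0.061, and Csf2, Relb and Rela were at -0.019, -0.061 and -0.083. Il1b had a control mean of 4.62, below the filter level of 4.94, and a Res 499 mean of 5.12. It thus passed only through the tumours where it was high, which the positive count of this list includes.

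The Res 177 comparison asks whether a second resistant subline shows the same. On the first design, the single Res 177 tumour was above every control in 5 of the 8 tested chemokines (Ccl2, Ccl7, Ccl8, Ccl9 and Ccl3), as were 22.5% of all genes. The differences were 1.74 for Ccl8, 1.48 for Ccl9, 1.19 for Ccl3, 1.001 for Ccl2 and 0.92 for Ccl7, with a median of 0.96 over the 8. Of the 8, 4 were higher by at least 1, as were 0.938% of all genes, and 7 were positive, as were 53.3%. Ccl22 was at 0.29, Ccl5 at 0.23 and Ccl4 at -0.00. No chemokine of the 8 passed the threshold (limma adjusted p = 1.0 for each, where 0.21% of all genes passed), and 0 of 8 were higher at an unadjusted p under 0.05, as were 2.56% of all genes. The SE, between 0.17 and 1.07, was taken from the spread of the other groups. This comparison shares its control tumours with that of Res 499.

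The second design has its own control tumour and allows no test. There Ccl8 was 8.67 in the Res 177 tumour, against 6.02 in the control tumour, a difference of 2.65 or 6.30-fold. Ccl3 was 8.54 in the Res 177 tumour and 6.36 in the control tumour, a difference of 2.18, and Ccl2 was 7.85 in the Res 177 tumour and 6.06 in the control tumour, a difference of 1.79. Ccl9 differed by 1.53 (7.94 in Res 177 and 6.42 in control) and Ccl7 by 1.497 (7.87 in Res 177 and 6.38 in control). These 5 of 9 genes were higher by at least 1 in the Res 177 tumour, as were 0.928% of all genes on that design. Ccl5 was 9.15 in the Res 177 tumour and 9.14 in the control tumour, and Ccl4 differed by 0.06, Ccl22 by 0.22 and Ccl12 by 0.44. All 9 differences were positive, as were 57.5% over all genes, with no filter on dim genes here. Of the 9, 7 had a mean level above that of the dimmest 25% of genes on this design (5.86). Ccl4 (5.73 in Res 177 and 5.68 in control) and Ccl12 (5.99 and 5.55) did not, so their differences lie near the floor. The median over the 9 genes was 1.497, beside 0.03 over all 19938 genes. Beside them, 17 of 18 macrophage markers were higher in the Res 177 tumour with a median difference of 0.80, and all 8 keratinocyte markers were higher with a median of 1.06; their part in the chemokine differences was not tested.

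**Figure D5:**
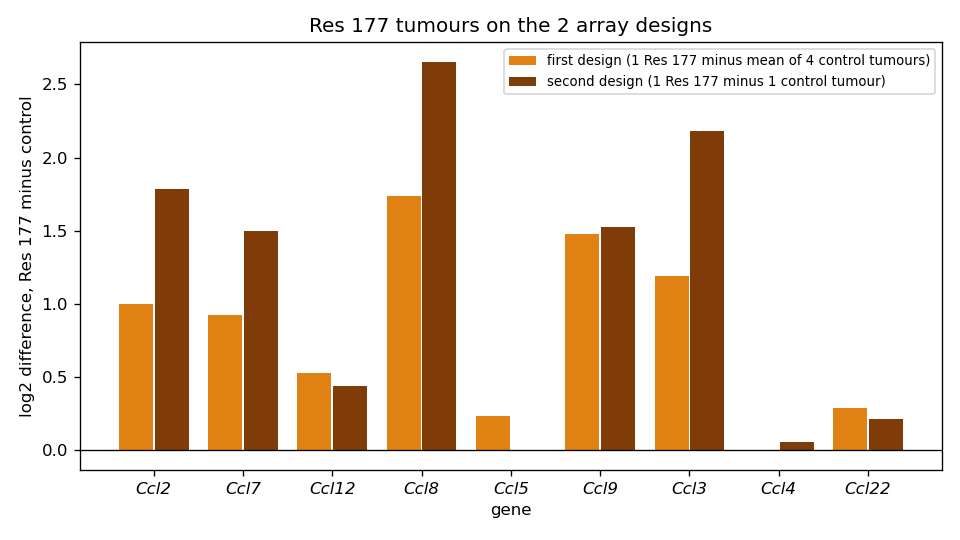
Log2 differences of Res 177 minus control for the 9 chemokines on the first design (1 Res 177 tumour minus the mean of 4 control tumours) and on the second (1 tumour each). Ccl2, Ccl7, Ccl8, Ccl9 and Ccl3 lie between 0.92 and 2.65 on both designs, and Ccl5 and Ccl4 between -0.00 and 0.23.

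Between the sublines, Res 499 and Res 177 did not differ past the threshold in any of the 8 chemokines (limma adjusted p = 1.0 for each, where 0.234% of all genes passed). At an unadjusted p under 0.05, 0 of the 8 were higher, as were 0.998% of all genes. Positive differences were seen in 4 of the 8 and in 47.5% of all genes, and positive differences of at least 1 in 0 of the 8 and in 0.0361% of all genes. Genes lower in Res 499 by that much were not counted in this share. The difference of Res 499 minus Res 177 was -0.69 for Ccl8 (95% interval -2.90 to 1.53), 0.34 for Ccl7 (-1.16 to 1.85) and 0.03 for Ccl3 (-1.23 to 1.29). For Ccl2 it was -0.00 (-1.43 to 1.43) and for Ccl9 -0.05 (-1.83 to 1.72). With 1 Res 177 tumour, the intervals of these 5 genes include 2-fold differences in either direction. The narrowest was that of Ccl4, from -0.20 to 0.50.

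With both sublines pooled by the response label, 8 resistant tumours were set against 4 sensitive ones. All 8 tested chemokines had positive differences, as did 52.4% of all genes, with a median of 1.07, and 0 passed the threshold, which 0.613% of all genes did. At an unadjusted p under 0.05, 5 of the 8 were higher, as were 7.11% of all genes, and 4 were higher by at least 1, as were 0.523%. Ccl3 differed by 1.22 (SE 0.32, limma adjusted p = 0.112), Ccl9 by 1.43 (SE 0.45, adjusted p = 0.182), Ccl7 by 1.22 (SE 0.39, adjusted p = 0.181) and Ccl8 by 1.14 (SE 0.57, adjusted p = 0.421). Without Res 499 replicate 7, Ccl3 passed at 1.41 (limma adjusted p = 0.0234) and was the only one of the 8. In that fit 42 of all 16635 genes passed. Leaving out any other single tumour gave no call among the 8. The pooled values lean on Res 499, which supplied 7 of the 8 resistant tumours.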

How the data were processed

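RNA of 14 tumours was hybridised to Affymetrix arrays, 2 designs in all. The authors deposited log2 values for each probe set; per the submitters' processing notes these come from RMA and oligo, whose versions and genome build were not given in the sources used here. RMA equalises array distributions, so a level is relative to the other genes of its array. The designs were normalized separately and never pooled. GEO's platform annotation gave the gene names (1 symbol for 23521 of 41345 probe sets on the first design). A gene with several was represented by the one of highest mean, and the 5545 dimmest genes (25%) were left out of 22180. Groups follow the subline label, and replicate numbers follow deposition order.

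A limma 3.58.1 fit (lmFit and eBayes, R 4.3.3) of 3 groups gave the subline comparisons, and a fit of 2 levels the pooled one, with Benjamini-Hochberg adjustment over 16635 genes and a threshold of 0.05; this was tested on simulated data. Precision is limited by the number of tumours, since arrays have no read depth. The 9 genes and the gene lists were chosen with earlier results of these data known. Named genes are the 9, every tested gene of the receptor, CC chemokine, CXCR3 ligand and NF-kappaB lists, and for each tested chemokine the 3 genes of highest r, the 9 chemokines, predicted models, antigen receptor segments and small RNAs left out. A planned correlation with macrophage markers was not run, because the marker means fell into separate clusters. Alternatives covered the filter, probe set, normalization, prior, array weights, each tumour left out, and leukocyte or macrophage content; those for Cxcl10 were added after seeing the data.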

Additional observations from a re-analysis of the deposited data

Results flagged for a closer look

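Ccl3 in Res 499 replicate 7 stood at 6.95, far below the other Res 499 tumours, which ran from 8.05 to 8.77. The gap to the nearest tumour was 0.605 of the range of the group, above the critical value of 0.568 for 7 samples. It was the only such tumour among 18 groups examined (9 chemokines in Res 499 and in control tumours), and chance flags about 1 in 20 groups. The same tumour had the lowest macrophage marker mean of the Res 499 tumours, at -0.34.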

How the results depend on the processing

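With 4 control tumours, 1 Res 177 tumour and no read depth on arrays, small differences could not be resolved. None of the 9 chemokines passed under any alternative run except Ccl3 without Res 499 replicate 7, so the count of chemokines called ran from 0 to 1 with 1 tumour left out, for Res 499 and for all resistant tumours. Over its alternatives the Ccl3 difference of Res 499 ran from 0.67 to 1.46, with limma adjusted p from 0.0418 to 0.433. Of the values of single members of the 9 under alternatives, 690 kept their direction and side of the threshold, 36 changed sign and 2 passed.

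With the leukocyte covariate the median chemokine difference was 0.30 for Res 499, 0.21 for Res 177 and 0.28 for all resistant tumours, and with the macrophage covariate 0.35, 0.29 and 0.33. Under these covariates, leukocyte first, Ccl5 turned to -0.60 and -0.55 in Res 499, -0.66 and -0.63 in Res 177 and -0.61 and -0.56 in all resistant tumours, Ccl8 to -0.28 and -0.16 in Res 499 and -0.23 and -0.11 in all resistant tumours, and Ccl22 to -0.10 and -0.037 in Res 177. For Res 499 minus Res 177, Ccl2 turned to 0.072 and 0.075, Ccl5 to 0.065 and 0.081 and Ccl9 to 0.10 and 0.13. In that comparison Ccl2 was also 0.013 after median centring and 0.023 after repeated quantile normalization, and Ccl3 was -0.024 with array weights. For Res 177 minus control, Ccl4 was 0.015 with array weights. The cause was not tested.

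Leaving out 1 tumour at a time gave -0.018 to 0.36 for Ccl5 in Res 499 and -0.072 to 0.076 for Ccl4 in Res 177. Without a change of sign, it moved by over 1.5 times Ccl8 (0.70 to 1.31), Ccl22 (0.30 to 0.65) and Ccl4 (0.076 to 0.22) in Res 499. The same held for Ccl22 (0.12 to 0.47) and Ccl5 (0.13 to 0.35) in Res 177. In all resistant tumours it held for Ccl22 (0.28 to 0.63), Ccl4 (0.057 to 0.21) and Ccl5 (0.018 to 0.34). For Res 499 minus Res 177 it held for Ccl8 (-1.04 to -0.43), Ccl7 (0.18 to 0.57) and Ccl22 (0.13 to 0.29). In that comparison, leaving out 1 tumour gave -0.18 to 0.17 for Ccl2, -0.049 to 0.25 for Ccl3, -0.25 to 0.13 for Ccl5 and -0.31 to 0.22 for Ccl9. Without the first-design Res 177 tumour its comparisons could not be made.

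Genes called among all tested numbered 59 for Res 499, against 356 with array weights, 30 and 29 with the leukocyte and macrophage covariates, and 6 to 196 with 1 tumour left out. For all resistant tumours they numbered 102, against 330 with array weights, 40 and 33 with the covariates, 42 with sublines weighted equally and 9 to 141 with 1 tumour left out. There 48 were higher and 54 lower, against 32 and 67 after centring on the median. For Res 177 they numbered 35, against 101 with no filter, 2 with the dimmer 50% of genes left out and 31 to 37 with 1 tumour left out, and for Res 499 minus Res 177 39, against 113, 2 and 32 to 42. No paired analysis was possible because the labels give no replicate numbers, which were assigned here in deposition order.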
